A study of Mus musculus with 12 samples.

Results

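*Cdh1*, *Calml3*, *Klf4* and *Sfn* were followed as genes of the surface epithelium of the eye. They are 4 of 770 genes on the mouse PanCancer Pathways panel of nCounter, a method that counts single RNA molecules through color-coded probes and needs no amplification. The 4 genes were taken by their symbols, and all 12 samples were used. They had been chosen by their values in these same samples, in the comparisons of *RBS* lesions, control eyes and Shh-MBs, so their own group differences are given as a description and without a test.

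The 5 *RBS* lesions came from eyes of *Rax-creERT2::Ctnnb1(ex3)Fl/+SmoM2Fl/+* embryos at E18.5, after tamoxifen at E8.5. The 4 control eyes came from *Ctnnb1(ex3)Fl/+SmoM2Fl/+* embryos of the same age, which carry both floxed alleles but no Cre driver. Whether the control embryos were exposed to tamoxifen is not given in the labels used here. The 3 Shh-MBs were hindbrain tumors of *hGFAP-cre::SmoM2Fl/+* mice, taken at 14 days. In *RBS* mice the *Rax* promoter, which is active in retinal precursor cells, drives an inducible Cre. The recombined alleles give a stabilized beta-Catenin and an active Smo, so both Wnt and Shh signaling are switched on. Lesions take the place of most of the regular eye. The *hGFAP* promoter drives Cre in glial and neuronal precursors, and no floxed *Ctnnb1* allele is named for these mice. The groups share a floxed *SmoM2* allele. Each sample was 1 eye, lesion or tumor of a single animal, and the sex of the embryos is not given in the labels used here. Lesions and Shh-MBs differ in tissue and age as well as genotype, and these cannot be told apart.

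The surface ectoderm of the embryo forms the epithelium of the cornea, conjunctiva and eyelids. Its cells are held together by adherens junctions and rest on a basement membrane through integrins and laminins. *Cdh1* encodes E-cadherin, the cadherin of epithelial adherens junctions. *Calml3* encodes a calmodulin-like protein of stratified epithelia. *Klf4* encodes a zinc finger transcription factor of differentiating epithelia, also of cornea and conjunctiva. *Sfn* encodes 14-3-3 sigma, a protein of stratified epithelia and a target gene of p53. Eyes also hold retina, mesenchyme, vessels and blood, and in whole tissue fewer cells of a type and less RNA per cell cannot be told apart.

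RefSeq tables held all 4 symbols, and a promoter entry for *Klf4* and *Sfn*. Both are shown because these genes differ in how far they could be measured, *Klf4* above the floor in all 12 samples and *Sfn* near it in all of them. The sequences are the 250 bases before the gene start in GRCm38.p6, at chr4:55532476-55532725 for *Klf4* and chr4:133602169-133602418 for *Sfn*, both on the minus strand. They are written 5′ to 3′ in the direction of transcription, and capitals mark every CG, a motif that reads the same on both strands.
Klf4: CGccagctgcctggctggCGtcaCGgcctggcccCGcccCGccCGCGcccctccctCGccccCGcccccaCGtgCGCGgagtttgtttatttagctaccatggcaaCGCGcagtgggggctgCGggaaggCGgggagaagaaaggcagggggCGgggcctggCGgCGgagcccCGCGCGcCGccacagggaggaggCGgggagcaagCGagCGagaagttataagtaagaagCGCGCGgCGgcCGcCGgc
Sfn: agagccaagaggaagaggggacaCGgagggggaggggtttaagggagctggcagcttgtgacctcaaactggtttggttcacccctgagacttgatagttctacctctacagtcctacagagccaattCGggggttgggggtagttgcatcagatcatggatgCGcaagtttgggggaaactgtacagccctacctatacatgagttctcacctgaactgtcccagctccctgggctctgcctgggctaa
The *Klf4* promoter had 32 CG motifs and 74.0% G or C bases, and the *Sfn* promoter had 3 and 54.4%. Among 32851 promoters of the same length the median was 6 CG motifs and 52.4%. A CG was present in 92.1% of these promoters, and 4.58% had at least as many as *Klf4*. A further 37.8% had as few as *Sfn* or fewer. No methylation or binding was measured here.

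Depth was estimated as the total signal divided by the step between neighbouring low values, without knowledge of the background level removed. By this estimate the *RBS* lesions had 335392 to 637795 counts above background, the control eyes 590200 to 716684 and the Shh-MBs 541092 to 707210. Between 52 and 123 genes per sample lay at the lowest value of the sample, which is taken here as no signal above background. Control eye 4 was often the highest of the control eyes in these genes. It was the highest control eye for 3 of the 4 genes, for 6 of 10 genes of epithelial adhesion, for all 7 mesenchyme markers on the panel and for 236 of all 770 genes (30.6%). By Dixon's test, given below, control eye 4 was flagged for *Fgf10* only. Values are also given without it, as a description. Where it was the highest control eye, leaving it out lowers the control values by construction, so a lost overlap is no test. *RBS* lesion 1 had the fewest counts, 335392.

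*Calml3* was present in all eyes, whereas all Shh-MBs had it at their lowest value. Its signal was 449, 245, 349, 318 and 429 in *RBS* lesions 1 to 5, with a mean of 358 ± 83.4 (SD, *n* = 5). In control eyes 1 to 4 it was 134, 180, 183 and 259, with a mean of 189 ± 51.9 (SD, *n* = 4). All lesions except lesion 2 were above all control eyes, and lesion 2 was below control eye 4 only. The log2 difference between *RBS* lesions and control eyes was 0.92 (standard error 0.228). Without control eye 4 the control mean was 166 ± 27.3 (SD, *n* = 3), and the groups no longer overlapped. In the 3 Shh-MBs the signal was 1.12, 1.00 and 1.00, so no fold is given.

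*Cdh1* was also an eye gene in this set, with a wide spread within groups. Its signal was 237, 133, 162, 204 and 264 in *RBS* lesions 1 to 5, with a mean of 200 ± 53.4 (SD, *n* = 5). It was 111, 78.4, 145 and 228 in control eyes 1 to 4, with a mean of 141 ± 64.4 (SD, *n* = 4). The groups overlapped. Lesion 2 was below control eyes 3 and 4, and control eye 4 was above lesions 2, 3 and 4. The log2 difference was 0.57 (standard error 0.316), and without control eye 4, at a control mean of 111 ± 33.2 (SD, *n* = 3), the groups still overlapped. In Shh-MBs 1 to 3 *Cdh1* was 1.12, 16.5 and 3.18, with the first at the lowest value. All eyes were far above all of these tumors. The log2 difference was 5.18 (standard error 0.615) for *RBS* lesions and 4.61 (standard error 0.738) for control eyes, each against Shh-MBs. These sizes rest on weak values in the tumors, and with values under 20 set to 20 they were 3.21 and 2.64.

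*Klf4* was measured above the floor in all samples. Its signal was 444, 196, 223, 182 and 220 in *RBS* lesions 1 to 5, with a mean of 253 ± 108 (SD, *n* = 5). Control eyes 1 to 4 had 140, 144, 165 and 266, with a mean of 179 ± 58.9 (SD, *n* = 4). Lesion 1 was far above the other lesions, while control eye 4 was above the 4 other lesions, so the groups overlapped. The log2 difference was 0.47 (standard error 0.291). It was 0.24 without lesion 1, 0.29 after centring samples on their medians and 0.30 with quantile normalization. Without control eye 4 the control mean was 150 ± 13.3 (SD, *n* = 3), and all lesions lay above the 3 control eyes left. Shh-MBs 1 to 3 had 20.4, 27.7 and 16.7, with a mean of 21.6 ± 5.58 (SD, *n* = 3). Every eye was above every tumor. The log2 difference against Shh-MBs was 3.44 (standard error 0.307) for *RBS* lesions and 2.97 (standard error 0.275) for control eyes. After centring samples on their medians these were 2.59 and 2.30.

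*Sfn* stayed near the floor, so these data do not show it as a surface epithelium gene of these eyes. Its signal was 1.64, 1.00, 6.54, 6.08 and 1.00 in *RBS* lesions 1 to 5 and 2.88, 1.01, 1.41 and 1.04 in control eyes 1 to 4. Shh-MBs 1 to 3 had 1.12, 2.41 and 1.00. It was at the lowest value in 3 of 5 lesions, 2 of 4 control eyes and 2 of 3 tumors. The highest value, in lesion 3, was 7.42 steps, where 1 step stands for about 1 count. No fold is given, and at this depth a difference between groups was not detectable.

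**Figure D1:**
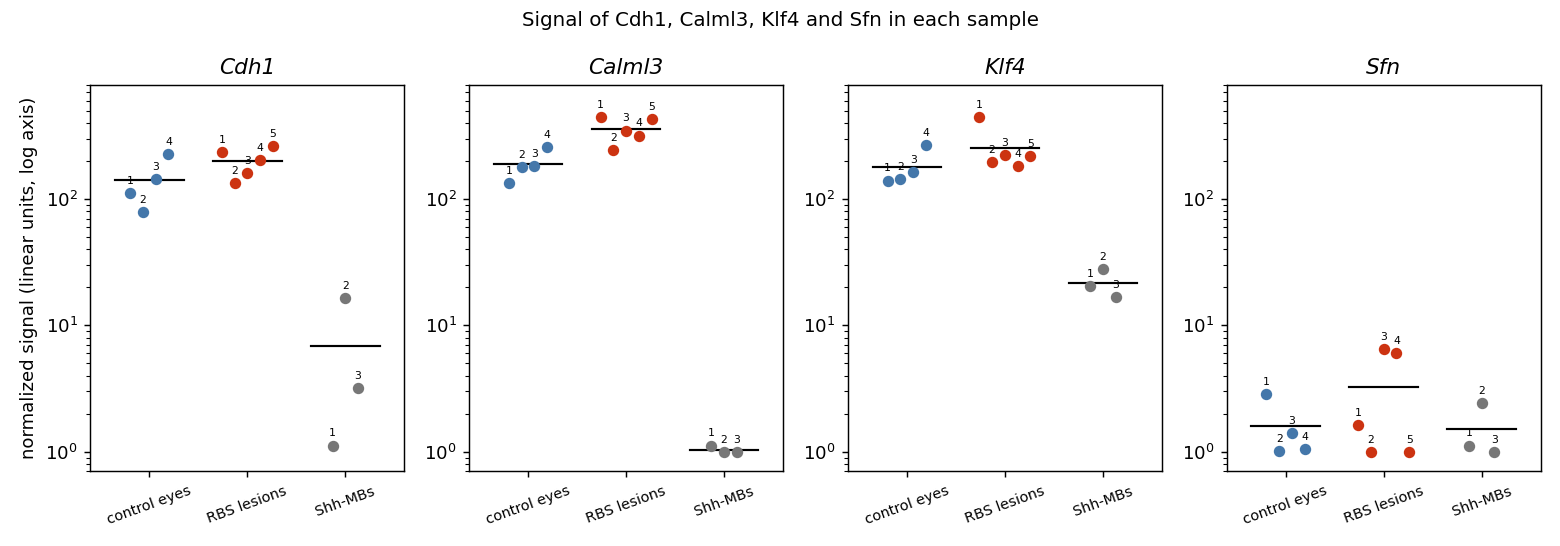
Normalized signal (linear units on a log axis) of *Cdh1*, *Calml3*, *Klf4* and *Sfn* in each sample, with points numbered by replicate and lines at the group means. *Calml3*, *Cdh1* and *Klf4* are high in eyes and low in Shh-MBs, control eye 4 lies within the range of the *RBS* lesions for these 3 genes, and *Sfn* is at or near the floor in all groups. Probes differ, so levels are not to be compared between genes.

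The background of these comparisons was wide. In limma fits over all 770 genes (two-sided, Benjamini-Hochberg, adjusted *p* under 0.05), *RBS* lesions were above control eyes in 33% of genes and below them in 18.2%. For 27.5% of genes all lesions were above all control eyes, which held for 0 of the 4 genes described here. Against Shh-MBs, 48.1% of genes were higher and 12.7% lower in *RBS* lesions, and 47% had all lesions above all tumors. Of control eyes against Shh-MBs the shares were 31.4% higher, 9.61% lower and 36% with all eyes above all tumors. All eyes were above all tumors for *Calml3*, *Cdh1* and *Klf4*, 3 of the 4. Since the genes were selected on these comparisons, nothing is read from these counts. The share of higher genes among all called genes depends on the scaling. It was 64.5% for lesions against control eyes and 50.0% after centring samples on their medians. For lesions against Shh-MBs it was 79.1% and 36.2%, and for control eyes against Shh-MBs 76.6% and 30.9%. The log2 difference had a median over all 770 genes of 0.17, 0.53 and 0.22 in these comparisons, and with that centring -0.01, -0.32 and -0.44.

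Ratios within a sample do not depend on its scaling. The ratio of *Calml3* to *Cdh1* had a median of 1.84 in *RBS* lesions (range 1.56 to 2.16) and of 1.24 in control eyes (range 1.14 to 2.29). Control eye 2, with the lowest *Cdh1*, set the upper end in control eyes. The ratio of *Calml3* to *Klf4* had a median of 1.56 in lesions (range 1.01 to 1.95) and of 1.04 in control eyes (range 0.958 to 1.25). *Klf4* over *Cdh1* was between 0.834 and 1.87 in lesions and between 1.14 and 1.84 in control eyes. The ranges of both groups overlapped for all 3 ratios.

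The other genes of epithelial adhesion on the panel were integrins and laminins, 10 of a list of 16. Of these, 5 were higher in lesions when set against control eyes (50.0%, beside 33% of all genes) and 5 did not pass the limma test. None was lower, also at an unadjusted *p* under 0.05, as all 10 differences were above 0. Their median log2 difference was 0.92, beside 0.18 over all panel genes not at the floor in a whole group. *Itga2*, the alpha2 subunit of a collagen receptor, was between 126 and 181 in lesions and between 19.6 and 36.9 in control eyes. The groups lay far apart. The difference on the log2 scale was 2.48, with a standard error of 0.189 (adjusted *p* = 1.31e-05, limma). *Itgb4*, the beta4 subunit of hemidesmosomes, was between 24.4 and 56.3 in lesions and between 12.03 and 33.4 in control eyes, which is 1.19 on the log2 scale with a standard error of 0.326 (adjusted *p* = 0.0139, limma). Only control eye 4 reached into the range of the lesions. *Itgb8*, the beta8 subunit of an integrin that activates TGF-beta, was between 393 and 476 in lesions and between 194 and 265 in control eyes (log2 difference 0.98, standard error 0.112, adjusted *p* = 0.000121, limma). *Itga6*, the partner of beta4, was between 970 and 1251 in lesions and between 513 and 784 in control eyes (log2 difference 0.74, standard error 0.142, adjusted *p* = 0.00221, limma). Chains of laminin-332, the laminin that hemidesmosomes bind, had wide spreads in control eyes. *Lama3* was between 23.4 and 70.9 in lesions and between 2.88 and 43.8 in control eyes (log2 difference 1.44, adjusted *p* = 0.0849, limma), and *Lamb3* between 14.7 and 68.2 and between 5.66 and 36.5 (log2 difference 1.36, adjusted *p* = 0.0625, limma). Control eye 4 was the highest control eye for both, and without it all lesions were above the 3 control eyes left. None of these 4 integrins passed the *t* test of the methods with step-down Bonferroni adjustment, where *Itga2* had the lowest adjusted *p* (0.0721). With Benjamini-Hochberg adjustment of that test *Itga2*, *Itgb8* and *Itga6* passed, and *Itgb4* did not (adjusted *p* = 0.0564). With values under 20 set to 20 the log2 difference of *Itgb4* was 0.78. The number of adhesion genes that passed was 8 without control eye 4. Against Shh-MBs, 9 of the 10 genes were higher in lesions (90.0%, beside 48.1% of all genes) and 6 in control eyes (60%, beside 31.4%), and *Lama5*, the laminin alpha5 chain, was lower in both. All 3 tumors had *Itga2* at their lowest value, so no fold is given. *Lama5* had a mean of 35.9 in lesions, 26.4 in control eyes and 67.0 in tumors. Its log2 difference was -0.90 (adjusted *p* = 0.0196, limma) for lesions and -1.43 (adjusted *p* = 0.0397, limma) for control eyes. Without Shh-MB 2 these adjusted *p*-values were 0.0745 and 0.117, and without Shh-MB 3 they were 0.0712 and 0.11. That of control eyes was 0.0896 without control eye 3. With all 12 samples in a single limma fit that of lesions was 0.0571. By the *t* test of the methods with Benjamini-Hochberg adjustment, *Lama5* had an adjusted *p* of 0.053 for lesions and 0.0776 for control eyes.

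**Figure D2:**
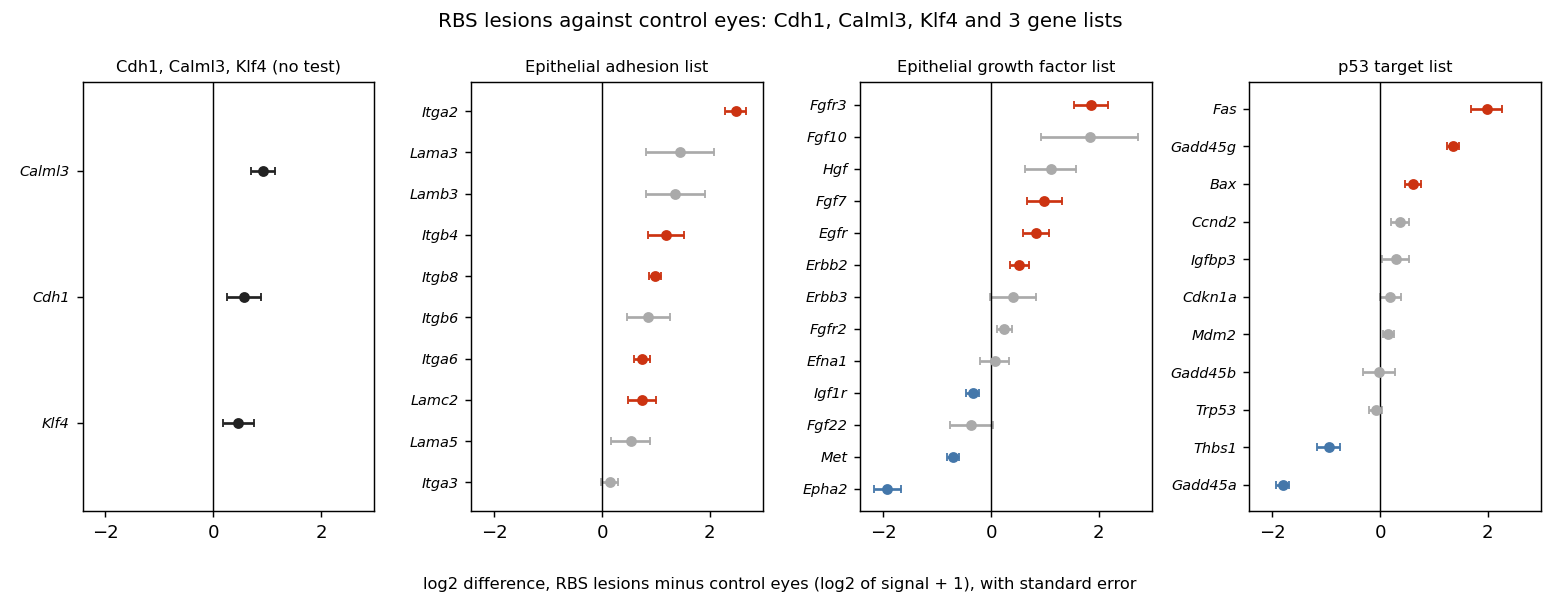
Log2 difference (log2 of signal plus 1) of *RBS* lesions minus control eyes, with its standard error, for *Calml3*, *Cdh1* and *Klf4* (black, no test), 10 genes of epithelial adhesion, 13 of epithelial growth factor signaling and 11 genes of the p53 target list. Red and blue mark genes higher and lower in lesions at an adjusted *p* under 0.05 (limma), and grey marks genes that did not pass. All adhesion genes lie above 0, while the other lists have genes on both sides.

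Growth factor genes of epithelia were called in shares near those of all genes. Of 13 on the panel (of a list of 18), 4 were higher (30.8%, beside 33% of all genes), 3 lower (23.1%, beside 18.2%) and 6 did not pass in *RBS* lesions against control eyes. The median log2 difference was 0.41, beside 0.18 over all panel genes not at the floor. *Fgfr3*, a receptor of fibroblast growth factors, was between 532 and 975 in lesions and between 90.6 and 255 in control eyes (log2 difference 1.86, standard error 0.310, adjusted *p* = 0.000974, limma). *Epha2*, an ephrin receptor, was between 3.02 and 9.63 in lesions and between 19.6 and 22.8 in control eyes (log2 difference -1.93, standard error 0.250, adjusted *p* = 0.000233, limma). Neither gene had overlapping groups. *Epha2* was near the floor in lesions, and with values under 20 set to 20 its log2 difference was -0.10. *Egfr*, the receptor of EGF, had a mean of 127 in lesions and 71.3 in control eyes (log2 difference 0.83, adjusted *p* = 0.0175, limma), and its adjusted *p* was 0.0515 without control eye 2 and 0.0528 without control eye 3. *Fgf7*, a growth factor that mesenchyme supplies to epithelium, had a mean of 58.8 and 32.7 (log2 difference 0.99, adjusted *p* = 0.0277, limma). Its value in control eye 4, 60.5, lay within the range of the lesions. The adjusted *p* of *Fgf7* was between 0.0516 and 0.0753 when lesion 3, 4 or 5 or control eye 1, 2 or 3 was left out. The count of 7 genes in this list fell to 4 without lesion 3, lesion 5, control eye 1 or control eye 3 and to 3 without control eye 2. Against Shh-MBs, 11 of the 13 genes were higher in lesions (84.6%, beside 48.1% of all genes). None was lower by limma (0 at an unadjusted *p* under 0.05), beside 12.7% of all genes. In control eyes 6 were higher (46.2%, beside 31.4%), and *Egfr* was lower (mean 71.3 against 163, log2 difference -1.21, adjusted *p* = 0.00633, limma).

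*Sfn* is a target of p53, so *Trp53*, which encodes p53, and the panel genes of a p53 target list are given beside it. Together these are 11 of a list of 17. The list is broad, and whether each of its genes is a target of p53 was not tested here. In *RBS* lesions against control eyes 3 were higher (27.3%, beside 33% of all genes), 2 lower (18.2%, the same share as of all genes) and 6 did not pass. Their median log2 difference was 0.19, beside 0.18 over all panel genes not at the floor, so the list was near the background. *Fas*, a death receptor, was between 27.6 and 44.8 in lesions and between 5.43 and 17.0 in control eyes (log2 difference 1.98, standard error 0.282, adjusted *p* = 0.000411, limma). With values under 20 set to 20 it was 0.92. The DNA damage response genes *Gadd45g* and *Gadd45a* changed in opposite directions. *Gadd45g* was between 148 and 193 in lesions and between 59.2 and 74.7 in control eyes (log2 difference 1.36, adjusted *p* = 1.84e-05, limma). *Gadd45a* was between 230 and 302 in lesions and between 803 and 1018 in control eyes (log2 difference -1.81, adjusted *p* = 5.14e-06, limma). *Thbs1*, thrombospondin 1, was between 48.0 and 95.7 in lesions and between 99.7 and 148 in control eyes (log2 difference -0.96, adjusted *p* = 0.00404, limma). None of these genes had overlapping groups. *Cdkn1a*, the cell cycle inhibitor p21, had means of 239 and 208 and did not pass (log2 difference 0.19, adjusted *p* = 0.460, limma). Against Shh-MBs 6 were higher (54.5%, beside 48.1% of all genes) and 2 lower (18.2%, beside 12.7%) in lesions. In control eyes 4 were higher (36.4%, beside 31.4%) and 2 lower (18.2%, beside 9.61%). The 2 lower genes were *Trp53* itself and the cyclin gene *Ccnd2* in both comparisons.

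Nearness of other panel genes was measured as the root mean square difference of log2 values, centred per gene, over the 12 samples. This is a description, and the samples form 3 separate groups. *Calml3* was nearest to the collagen genes *Col6a6* (0.845), *Col1a1* (0.911) and *Col1a2* (0.987), against a median of 2.93 over all other genes. *Cdh1* was nearest to the collagen gene *Col3a1* (0.684), the transcription factor gene *Gata3* (0.740) and the TGF-beta binding protein gene *Ltbp1* (0.744), against a median of 2.17. *Klf4* was nearest to the receptor gene *Erbb2* (0.351), the glypican gene *Gpc4* (0.387) and the fibronectin gene *Fn1* (0.401), against a median of 1.38. All of these genes were lower in all Shh-MBs than in all eyes. *Sfn* was nearest to *Tlx1* (0.413), *Fgf20* (0.499) and *Tlr4* (0.515), against a median of 0.842, and *Tlx1* and *Fgf20* were at the lowest value in all control eyes. Median centring gave the same 3 genes for each of the 4, whereas a pseudocount of 5 kept 1 of 3 for *Calml3* and 2 of 3 for each of the others. Between control eyes and lesions the nearest genes had differences on both sides of 0. *Erbb2*, beside *Klf4*, had means of 263 in lesions and 181 in control eyes (log2 difference 0.53, adjusted *p* = 0.0365, limma), and its adjusted *p* was 0.0509 to 0.1 when lesion 1, 3, 4 or 5 or control eye 1, 2 or 3 was left out. It was 0.113 with median centring, at a log2 difference of 0.35, and 0.117 with quantile normalization, at 0.34. The other neighbours of *Klf4* had log2 differences of 0.09 (*Gpc4*, adjusted *p* = 0.621, limma) and -0.08 (*Fn1*, adjusted *p* = 0.843, limma). *Gata3*, beside *Cdh1*, had means of 60.7 and 35.3 (log2 difference 0.90, adjusted *p* = 0.0497, limma), and its adjusted *p* was 0.066 to 0.115 when 1 of the 5 lesions or control eye 1 or 2 was left out, 0.093 with median centring and 0.0754 with quantile normalization. The other neighbours of *Cdh1* had log2 differences of 0.01 (*Col3a1*, adjusted *p* = 0.975, limma) and -0.37 (*Ltbp1*, adjusted *p* = 0.1, limma). *Col1a2* was between 1553 and 3147 in lesions and between 3350 and 7287 in control eyes (log2 difference -0.91, adjusted *p* = 0.0202, limma, 0.0533 without control eye 1 and 0.052 with quantile normalization), whereas the difference of *Calml3* was above 0. *Col6a6* had means of 199 and 136 (log2 difference 0.68, adjusted *p* = 0.111, limma), and *Col1a1* had 9894 and 18526 (log2 difference -0.90, adjusted *p* = 0.0438, limma). The adjusted *p* of *Col1a1* was 0.0557 to 0.112 when lesion 2, 3, 4 or 5 or control eye 1, 3 or 4 was left out, and 0.13 with quantile normalization.

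**Figure D3:**
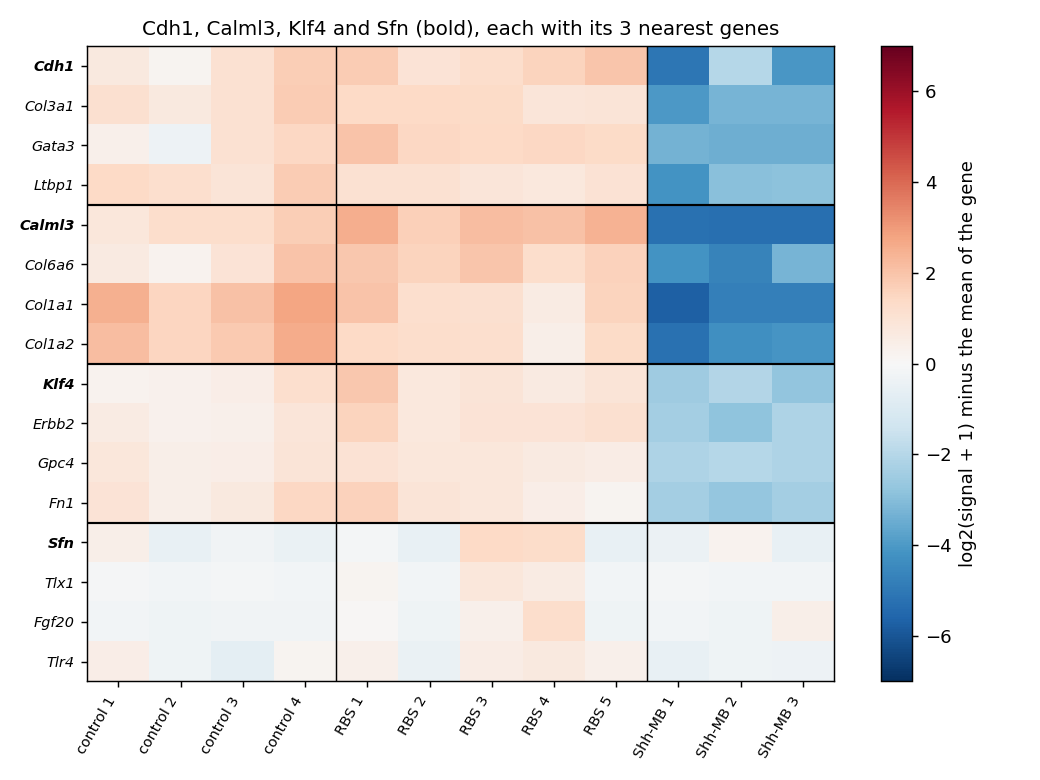
Log2 of signal plus 1, centred on the mean of each gene, for *Cdh1*, *Calml3*, *Klf4* and *Sfn* (bold) and the 3 nearest panel genes of each, in 4 control eyes, 5 *RBS* lesions and 3 Shh-MBs. The neighbours of *Cdh1*, *Calml3* and *Klf4* are low in all Shh-MBs, and *Col1a1* and *Col1a2* are deepest in red in control eyes 1 and 4.

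Marker genes of the tissues an eye holds also differed between the groups, and their part in the values above was not tested. Of 14 surface epithelium markers besides the 4 genes, 5 were on the panel, all of them integrins and laminins of the adhesion list. Keratins and *Trp63* were not among them. The summed signal of these 5 was between 1095 and 1442 in *RBS* lesions, between 596 and 859 in control eyes and between 168 and 260 in Shh-MBs. *Itga6* made up 78.5% to 89.6% of this sum in lesions and 81.0% to 93.1% in control eyes. The other 4 markers summed to between 114 and 287 in lesions and between 58.5 and 163 in control eyes, and these ranges overlapped. Mesenchyme markers (7 of 8 on the panel) summed to between 19843 and 36410 in lesions, between 25546 and 57829 in control eyes and between 1475 and 2099 in tumors. In the mesenchyme sum control eye 4 was the highest of all 12 samples. Control eye 4 and lesion 1 were the highest of their groups in both the surface epithelium and the mesenchyme sum. *Col1a1* made up 29.0% to 42.0% of the mesenchyme sum in lesions and 41.6% to 50.7% in control eyes. Of its 7 markers, 2 had a higher mean in lesions than in control eyes and the others a lower mean. Neuron markers (5 of 8) summed to between 2224 and 2967 in lesions and between 555 and 722 in control eyes, with *Mapt* at 80.5% to 94.1% of the sum in these eyes. Endothelium markers (3 of 6) summed to between 695 and 988 in lesions and between 1789 and 2259 in control eyes. *Kdr* alone carried this difference, with means of 664 and 1864, while *Flt1* (58.5 and 53.3) and *Angpt2* (136 and 112) overlapped between the groups. Markers of blood and immune cells (4 of 9) summed to between 187 and 254 in lesions and between 85.2 and 137 in control eyes. *Hes5*, the only marker of retinal precursors on the panel, was between 1697 and 2353 in lesions and between 2903 and 4416 in control eyes. *Kit*, the only pigment cell marker, was between 147 and 192 in lesions and between 102 and 136 in control eyes. None of the 4 lens markers was on the panel. No marker on the panel was at its lowest value throughout a group.

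**Figure D4:**
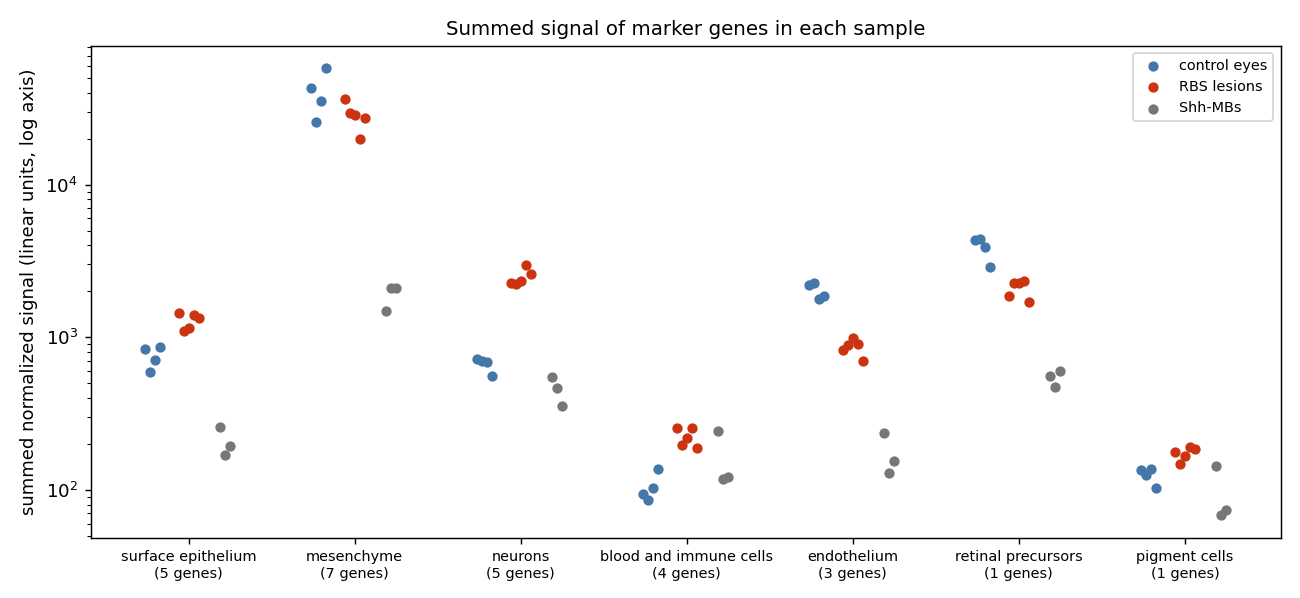
Summed normalized signal (linear units on a log axis) of the marker genes of 7 cell types in each of the 12 samples. Lesions lie above control eyes for surface epithelium, neurons, blood and immune cells and pigment cells, below them for endothelium (through *Kdr*) and retinal precursors (*Hes5* alone), and overlap them for mesenchyme. *Itga6* makes up most of the surface epithelium sum in these eyes.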

How the data were processed

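Fresh frozen tissue of 5 *RBS* lesions, 4 control eyes and 3 Shh-MBs was measured on the nCounter Mouse PanCancer Pathways panel with 770 genes. The authors normalized the counts with nSolver and the Advanced Analysis software. The deposited values hold a linear normalized signal with a floor at the lowest value. Background subtraction and 1 factor per sample were inferred from the low values and are not stated. The background setting and reference genes are not given in the sources used here. The low values lie on even steps, and 1 step was between 0.810 and 1.64.

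Groups were compared pairwise with limma 3.58.1 in R 4.3.3 (lmFit and eBayes, two-sided, Benjamini-Hochberg over 770 genes, threshold 0.05) on log2 of signal plus 1, without a filter. This pseudocount understates the change of weak genes. The fits were tested on simulated data with known changes. Nothing in the labels shows that mice came from separate litters, so *p*-values measure the spread between these samples. Plots used Python 3.11.15 and matplotlib 3.10.9.

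The 4 genes, the gene lists and the tests were chosen with earlier results of these data known. The lists came from general knowledge. By rule, the 4 genes of each list with the largest log2 difference among those past the threshold against control eyes are named with values, together with the 3 nearest genes of each of the 4. *Lama3*, *Lamb3*, *Lama5*, *Kdr*, *Flt1*, *Angpt2*, *Cdkn1a*, *Trp53*, *Ccnd2* and *Fgf10* were added after their values were seen. Alternatives were median centring, quantile normalization, total signal without the 3 most abundant genes, a pseudocount of 5, a floor of 20, a filter on low genes, all 12 samples in a single fit, trend and robust settings, the *t* test of the methods, a block for the replicate number and leaving out each sample. RefSeq symbols matched 760 of 770 panel genes. The human samples were not analysed here.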

Additional observations from a re-analysis of the deposited data

Results flagged for a closer look

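In groups of 4 or 5, the highest or lowest sample stood apart from the rest by Dixon's test in 6 of 98 groups examined, where chance gives about 1 in 20. *Klf4* was 444 in *RBS* lesion 1, the highest of its group. Lesion 1 was also the highest lesion for 226 of 770 genes (29.4%). *Gata3*, a neighbour of *Cdh1*, was highest in lesion 1 as well, at 82.5. *Fgf10* was 119 in control eye 4, against 7.57 to 13.1 in the other control eyes. *Gadd45a* was highest in lesion 3, at 302. *Fas* was lowest in lesion 2, at 27.6, and *Col1a2* was lowest in lesion 4, at 1553.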

How the results depend on the processing

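*Calml3*, *Cdh1* and *Klf4* kept their direction under other scalings, pseudocount and floor, where a fold was given, and with samples left out. The other alternatives were run for the gene counts and named genes, of which none changed sign past the threshold. Of 364 values besides those with a sample left out, 292 kept within their limit, which was the side of the threshold for tested genes, 1 SD for *Calml3*, *Cdh1* and *Klf4* and 1.5 times for counts of genes. The cause was not tested. *Sfn* was at or near the floor in all groups, and *Calml3* and *Cdh1* were weak in Shh-MBs, so sizes that rest on these values are uncertain.

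Against Shh-MBs, *Klf4* in *RBS* lesions and control eyes was 2.59 and 2.30 with median centring and 2.29 and 2.00 with quantile normalization, and *Cdh1* was 3.21 and 2.64 with a floor of 20. Under the methods' *t* test with step-down Bonferroni adjustment, run without permutations, 72 genes passed for lesions against control eyes, 80 for lesions against Shh-MBs and 36 for control eyes against Shh-MBs. In this order the adhesion list had 0, 2 and 0, the growth factor list 0, 0 and 2 and the p53 target list 2, 3 and 1. At an unadjusted *p* under 0.05 the same test called 5, 9 and 7 adhesion genes and 6, 8 and 6 growth factor genes. Limma with Benjamini-Hochberg adjustment called 394, 468 and 316 of all genes. With Benjamini-Hochberg adjustment of the *t* test, 3 adhesion and 4 growth factor genes passed for lesions against control eyes, 7 growth factor genes for lesions against Shh-MBs and 3 adhesion genes for control eyes against Shh-MBs. Without low genes, 6 and 3 adhesion genes passed against Shh-MBs in lesions and control eyes. With a floor of 20, 7 growth factor genes passed in lesions and 4 adhesion genes in control eyes. *Fgf7* did not pass for lesions against control eyes in 6 of the alternatives, among them median centring (adjusted *p* = 0.0622, limma).

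Same-numbered samples did not deviate together. Their correlation was between -0.15 and 0.19 for lesions with control eyes, between -0.02 and 0.08 for lesions with Shh-MBs and between -0.08 and -0.02 for control eyes with Shh-MBs. They were therefore not treated as pairs. Shared litters or runs were not tested. With a replicate block 301, 407 and 230 genes passed in these comparisons, and 4 growth factor genes for lesions against control eyes and 4 adhesion genes for control eyes against Shh-MBs.

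With a sample left out in turn, between 350 and 392, 423 and 478, and 250 and 313 genes passed in these comparisons. In the same order the adhesion list had 4 to 8, 9 to 10 and 4 to 8, the growth factor list 3 to 8, 10 to 11 and 7 to 8, and the p53 target list 5 to 6, 7 to 8 and 5 to 6. For lesions against control eyes, leaving out control eye 4 gave the adhesion count of 8 and control eye 2 the growth factor count of 3. The adhesion count for control eyes against Shh-MBs was 7, and 4 without Shh-MB 2 or without Shh-MB 3. For lesions against control eyes *Calml3* was between 0.77 and 1.09, *Cdh1* between 0.33 and 0.84 and *Klf4* between 0.24 and 0.67. The lowest were without control eye 1, control eye 2 and *RBS* lesion 1, and the highest were without control eye 4. Against Shh-MBs *Cdh1* was between 4.51 and 6.03 in lesions and between 3.94 and 5.46 in control eyes, and *Klf4* between 3.21 and 3.62 and between 2.76 and 3.15.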
